A study of Homo sapiens with 5 samples.

Results

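Metallothioneins and zinc transporters were examined in the leukaemia line REH. This established human line of precursor B acute lymphoblastic leukaemia has the ETV6-RUNX1 fusion (TEL-AML1), and here the cells had been transplanted into NSG mice (NOD.Cg-PrkdcscidIl2rgtm1Wjl/SzJ, 6 to 10 weeks old at transplantation), an immunodeficient host strain. The 10 genes were taken by name and matched by Ensembl identifier in a table of 65217 human gene identifiers: the metallothioneins MT2A, MT1X, MT1E and MT1F, the zinc-sensing transcription factor MTF1, the zinc exporters SLC30A1 and SLC30A5, and the zinc importers SLC39A6, SLC39A10 and SLC39A14. All 10 were found. They were chosen by function with their brain-over-spleen fold changes in these same libraries already known, that is, selected on measured values of this contrast, so their differences between the sites are given as a description, without p-values. There were 3 brain libraries, of leukaemia cells collected from the leptomeninges, and 2 spleen libraries. Every library was made from the combined RNA of 5 mice, and leukaemia cells of both sites were purified on a Ficoll gradient. Per the sample titles and protocols, the replicate number marks 1 of 3 occasions, and the submitters withheld the spleen pool from the third occasion after quality control. The deposited tables number the spleen libraries differently, so for spleen the link of number to occasion is uncertain. No untransplanted REH library was used here, all libraries come from 1 line, and the spread between libraries is that between pools and occasions.

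Metallothioneins are small cysteine-rich proteins that bind zinc and copper and buffer free metal in the cytosol. When cytosolic zinc rises, MTF1 binds metal response elements in DNA and induces metallothionein genes and SLC30A1, which exports zinc across the plasma membrane. SLC30 proteins move zinc out of the cytosol, to the outside or into organelles, and SLC39 (ZIP) proteins move it into the cytosol. SLC39A10 is known as a gene that MTF1 represses, and B cells need it for survival and antigen receptor signalling.

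In cells from brain, MT2A and MT1X stood lower than in cells from spleen by log2 fold changes of -1.42 and -1.87. SLC30A1 also stood lower and SLC39A10 higher, with log2 fold changes of -0.67 and 0.67. SLC39A14 was somewhat lower in brain, while SLC30A5, SLC39A6 and MTF1 lay at about the same level at both sites. MT1E and MT1F were at or near 0 counts everywhere. Of the 10 genes, 8 passed a filter on low counts. In the edgeR quasi-likelihood fit over all 20419 genes kept, with a Benjamini-Hochberg adjusted threshold of 0.05, 3 of these 8 (MT2A, MT1X and SLC30A1) were called lower in brain and 1 (SLC39A10) higher. Of all genes tested, 3.5% were called lower, 6.01% higher and 9.51% either way. Because the genes were chosen with this contrast known, nothing is read from their count beside that share.

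**Figure D1:**
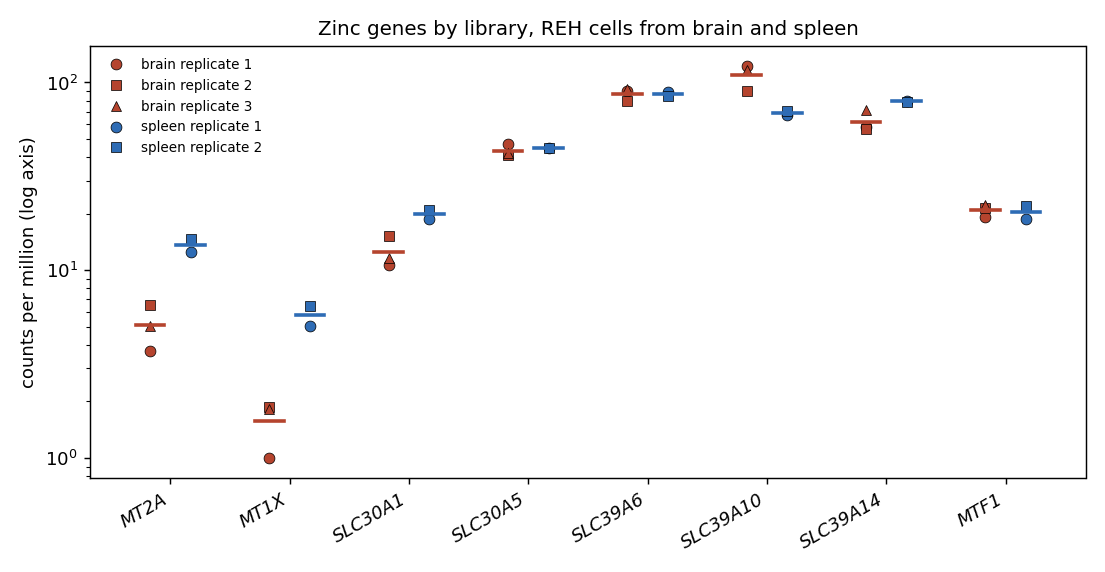
CPM (counts scaled to library size, per 1000000; log axis) of the 8 genes kept by the filter, for each of the 3 brain and 2 spleen libraries; bars are site means and symbols give the replicate number. The brain points lie below the spleen points for MT2A, MT1X, SLC30A1 and SLC39A14 and above them for SLC39A10, and the sites overlap for SLC30A5, SLC39A6 and MTF1.

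MT2A (ENSG00000125148, GRCh38 chromosome 16, 56608584 to 56609497, plus strand), the most abundant metallothionein here, had 145, 323 and 227 estimated counts in brain replicates 1 to 3 and 552 and 744 in spleen replicates 1 and 2. Every brain library lay below both spleen libraries. As CPM, this amounted to 5.10 ± 1.41 (SD, n = 3) against 13.7 ± 1.54 (n = 2), and the log2 fold change was -1.42 (SE 0.22). MT1X (ENSG00000187193, chromosome 16, 56682470 to 56684196, plus strand) lies in the same metallothionein cluster. It had 39, 93 and 82 counts in brain and 221 and 326 in spleen, or 1.57 ± 0.492 CPM against 5.75 ± 1.01, with a log2 fold change at -1.87 (SE 0.281). The sites did not overlap for MT1X either, and brain replicate 1 was the lowest library for both genes. Between same-numbered replicates 1 and 2, brain minus spleen on the log2 CPM scale was -1.75 and -1.17 for MT2A and -2.28 and -1.76 for MT1X. Sample titles give these libraries the same replicate numbers, but the deposited tables number the spleen libraries differently (REHS2 and REHS4). It is therefore uncertain that same-numbered libraries share an occasion. In bulk RNA, fewer cells with a transcript and less transcript per cell cannot be told apart.

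MT1E (ENSG00000169715, chromosome 16, 56625475 to 56627112) had 5 counts in spleen replicate 2 and 0 in the other 4 libraries. MT1F (ENSG00000198417, chromosome 16, 56657731 to 56660698) had 3 counts in spleen replicate 2, 1 in brain replicate 3 and 0 in the rest. For MT1E, a count of 0 over the 3 brain libraries allows up to 0.0225 CPM, taking 3 counts over the group. Both genes were close to the limit of detection and no fold change is given. The other 9 metallothionein genes looked up did not pass the filter either. MT1A, MT1B, MT1HL1, MT3 and MT4 had 0 counts in all 5 libraries, and MT1G, MT1H, MT1L and MT1M had at most 3 in any library. MT2A and MT1X together held between 97.8% and 100% of the metallothionein counts of each library. The ratio of MT2A to MT1X counts was 3.72, 3.47 and 2.77 in brain and 2.50 and 2.28 in spleen.

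The promoters of MT2A, MT1X and SLC30A1, the genes called lower in brain, and of MTF1 itself are shown to let the metal response element be seen. They come from RefSeq (GRCh38.p14) and hold the 250 bases before the annotated start, 5′ to 3′ on the gene's strand, with capitals marking matches to the element's core, TGCACNC or TGCGCNC, on either strand. The forms cannot match at the same position on the same strand.
MT2A, chr16:56608334-56608583, plus strand: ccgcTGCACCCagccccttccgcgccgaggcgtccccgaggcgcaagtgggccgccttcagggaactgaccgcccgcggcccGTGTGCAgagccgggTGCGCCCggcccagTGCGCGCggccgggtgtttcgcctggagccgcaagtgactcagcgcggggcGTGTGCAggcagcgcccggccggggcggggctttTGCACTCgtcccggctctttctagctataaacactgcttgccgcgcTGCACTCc
MT1X, chr16:56682220-56682469, plus strand: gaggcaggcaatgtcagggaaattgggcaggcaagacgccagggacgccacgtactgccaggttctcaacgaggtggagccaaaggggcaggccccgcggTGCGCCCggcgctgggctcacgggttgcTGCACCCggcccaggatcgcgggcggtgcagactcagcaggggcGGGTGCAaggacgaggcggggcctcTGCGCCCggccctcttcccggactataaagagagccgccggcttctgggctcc
SLC30A1, chr1:211579162-211579411, minus strand: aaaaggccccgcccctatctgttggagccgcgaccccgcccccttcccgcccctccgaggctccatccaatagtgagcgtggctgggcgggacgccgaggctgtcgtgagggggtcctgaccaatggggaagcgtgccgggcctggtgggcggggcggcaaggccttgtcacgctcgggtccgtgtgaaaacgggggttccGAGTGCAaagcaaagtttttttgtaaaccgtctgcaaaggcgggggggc
MTF1, chr1:37859593-37859842, minus strand: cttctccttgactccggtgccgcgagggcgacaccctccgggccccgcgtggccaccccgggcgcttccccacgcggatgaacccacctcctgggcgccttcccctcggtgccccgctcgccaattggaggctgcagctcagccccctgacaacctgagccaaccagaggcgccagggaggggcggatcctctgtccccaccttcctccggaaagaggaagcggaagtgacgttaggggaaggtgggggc

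The MT2A window held 7 matches and the MT1X window 4. Among 35116 promoter windows of this length, 0.0313% (11) held at least 7 matches, 0.37% (130) at least 4 and 24.8% at least 1. These windows were not matched for GC content, which was 73.2% for MT2A and 70% for both MT1X and MTF1. SLC30A1 had 1 match, 49 to 43 bases before its start and on the opposite strand, and MTF1 had none in this window. In MT2A the matches nearest the start lay 54 to 48 and 8 to 2 bases before it, and in MT1X the nearest lay 53 to 47 bases before it. Of the 10 genes, 7 had an entry in the table, and MT1E, MT1F and SLC39A14 had none. The windows of SLC39A10 (at both starts listed) and SLC30A5 held no match and that of SLC39A6 held 1, and these windows reach into annotated exons of their own genes. A match of these letters is a description of the sequence, and binding was not measured.

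Near-identical copies limit how far metallothionein reads can be assigned. Of the distinct stretches of 31 bases in the GENCODE 44 transcripts of each gene, 87.3% for MT2A, 79.7% for MT1X, 84.4% for MT1E and 96.7% for MT1F occurred in no transcript of another human gene. For SLC30A1 and SLC39A10 this share was 100%. Each share pools all transcripts of a gene, including those with few reads, and was not taken for the main transcript alone. MT1X-201, which held most MT1X counts, has 450 bases, and MT1X-204, with few, has 1727. The transcript model sharing most with MT1X, the overlapping non-coding ENSG00000259827 on the same strand, had 0 counts in every library, as did MT2P1, the pseudogene sharing most with MT2A. Mouse transcript sequences were not compared.

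SLC30A1 (ENSG00000170385, chromosome 1, 211571568 to 211579161, minus strand), the plasma membrane zinc exporter, had 414, 755 and 521 counts in brain and 824 and 1055 in spleen. This was 12.5 ± 2.45 CPM (SD, n = 3) against 19.9 ± 1.52 (n = 2), for a log2 fold change of -0.67 (SE 0.164), and every brain library lay below both spleen libraries. Its call was lost when brain replicate 1, brain replicate 3, spleen replicate 1 or spleen replicate 2 was left out, with log2 fold changes of -0.56, -0.62, -0.75 and -0.59. Between replicates of the same number, brain minus spleen was -0.82 and -0.46 on the log2 CPM scale.

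SLC30A5 (ENSG00000145740, chromosome 5, 69093991 to 69131069, plus strand) loads zinc into the early secretory pathway, where zinc-requiring enzymes such as alkaline phosphatases are assembled. It had 1834, 2029 and 1902 counts in brain and 1955 and 2252 in spleen. The sites overlapped, at 43.4 ± 3.16 and 44.6 ± 0.0927 CPM, with a log2 fold change of -0.039 (SE 0.101). The sign of so small a value turned to positive without brain replicate 2, at 0.00119, and with the mouse share as a covariate, at 0.11.

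SLC39A10 (ENSG00000196950, chromosome 2, 195575977 to 195737702, plus strand), a plasma membrane zinc importer, had 4803, 4443 and 5247 counts in brain and 2945 and 3557 in spleen. Every brain library lay above both spleen libraries, at 109.8 ± 17.6 CPM (SD, n = 3) against 68.8 ± 2.45 (n = 2), and the log2 fold change was 0.67 (SE 0.14). Without brain replicate 1, brain replicate 3 or spleen replicate 1 its call was lost, with values of 0.58, 0.62 and 0.63. Between replicates of the same number the difference was 0.87 and 0.35, brain replicate 2 being the lowest of the brain libraries.

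SLC39A14 (ENSG00000104635, chromosome 8, 22367278 to 22434129, plus strand), which imports zinc, manganese and non-transferrin-bound iron, had 2266, 2788 and 3197 counts in brain and 3512 and 3954 in spleen. The sites did not overlap, at 61.8 ± 8.04 and 79.2 ± 1.12 CPM. Its log2 fold change of -0.36 (SE 0.118) was not called by edgeR with all libraries. A call was made with the replicate block (-0.47), which rests on that uncertain pairing, without brain replicate 3 (-0.47), by the DESeq2 Wald test (-0.37) and without any filter (-0.36). SLC39A6 (ENSG00000141424, chromosome 18, 36108531 to 36129385, minus strand), also called LIV-1, is a zinc importer that forms complexes with SLC39A10. It had 3506, 3938 and 4161 counts in brain and 3895 and 4271 in spleen, and the sites overlapped at 87.3 ± 6.81 and 86.7 ± 2.84 CPM. Its log2 fold change was 0.0091 (SE 0.102), with no stable sign across the alternatives.

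MTF1 (ENSG00000188786, chromosome 1, 37809574 to 37859592, minus strand) had 750, 1058 and 1001 counts in brain and 824 and 1111 in spleen. The sites overlapped, at 20.9 ± 1.56 CPM (SD, n = 3) and 20.4 ± 2.31 (n = 2), with a log2 fold change of 0.038 (SE 0.121). MTF1 acts through zinc binding and movement to the nucleus, neither of which its mRNA level measures. Over the 8 genes kept, groups did not overlap for 4 with lower and 1 with higher values in brain. Over all genes tested, 19.5% had brain libraries below both spleen libraries and 23.3% above them.

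**Figure D2:**
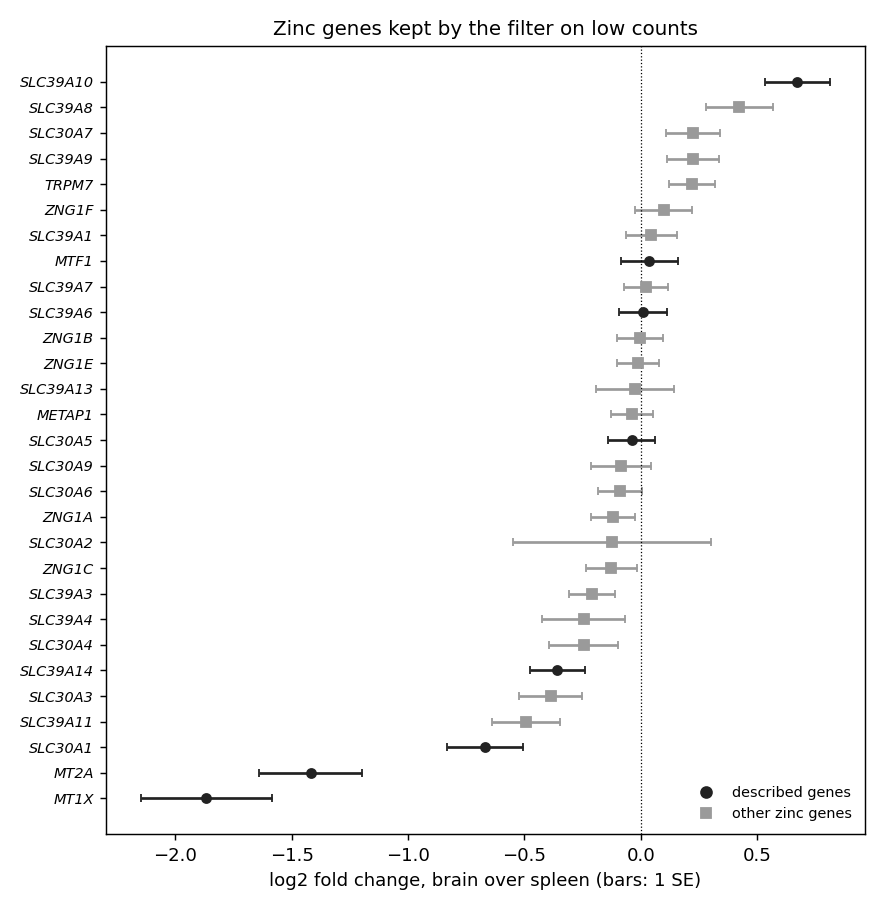
Log2 fold change of brain over spleen with 1 SE for the 29 zinc genes kept by the filter, the 8 genes described above in black and 21 others in grey. MT1X, MT2A and SLC30A1 have the lowest values and SLC39A10 the highest, at 0.67. The 8 genes were chosen with this contrast known, so their place at the ends is shaped by that choice.

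Of the wider zinc lists, 37 genes were not among the 10, and 21 of them were tested. With p-values adjusted over all genes, edgeR called 0 of these 21 higher and 0 lower in brain. The 10 had been taken out of the lists with this contrast known, so these counts of 0, and those by family below, are shaped by that choice. With the 10 included, 29 zinc genes were tested, 1 called higher and 3 lower. At an unadjusted p under 0.05, 1 of the 21 was higher and 2 were lower, and the DESeq2 Wald test called 0 of them higher and 1 lower. Their median log2 fold change was -0.037, beside 0.0066 for all genes tested. Among exporters, 0 of 6 tested passed, and the most abundant, SLC30A6, a partner of SLC30A5, measured 36.7 ± 1.12 CPM against 39.0 ± 1.56 in spleen. Among importers, 0 of 8 passed. The most abundant was SLC39A9, a Golgi and plasma membrane importer, at 135.6 ± 4.88 against 116 ± 16.6 CPM. Of other zinc handling genes (TRPM7, METAP1 and the ZNG1 zinc chaperones), 0 of 7 passed, and TRPM7, a divalent cation channel, stood at 109.7 ± 6.48 against 94.2 ± 4.41 CPM.

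SLC39A11 and SLC39A8 are named because of their values under alternatives. SLC39A11, a Golgi importer, had a brain-over-spleen log2 value of -0.49 (SE 0.147; adjusted p by edgeR, 0.0706), and was called by the DESeq2 Wald test (adjusted p = 0.0218) and by limma on the authors' log2 values (adjusted p = 0.0474). Its 6.71 ± 0.457 CPM in brain lay below 9.44 ± 0.457 in spleen without overlap. SLC39A8, an importer of zinc and manganese, stood at 0.42 on that scale (SE 0.145; adjusted p by edgeR, 0.106) and was called with no filter on low counts (adjusted p = 0.0179).

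Per unit of transcript length the genes can be set side by side, in TPM, the length-scaled share of each gene among human transcripts. In brain SLC39A6 had 37.1 ± 2.08 TPM (SD, n = 3) and SLC39A10 35.1 ± 3.10, within their spreads of each other. SLC30A5 had 30.5 ± 2.30, a value that is too low because part of its counts fell on transcripts that were not named. Its rank beside SLC39A6 and SLC39A10 is therefore not settled. SLC39A14 followed at 18.9 ± 2.08, MT2A at 14.4 ± 5.58 and MT1X at 6.58 ± 2.04, with SLC39A14 and MT2A overlapping. MTF1 at 3.61 ± 0.313 and SLC30A1 at 3.16 ± 0.681 were lowest of the 8 and also overlapped.

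The order differed in spleen, where SLC39A6 (38.4 ± 5.52 TPM, SD, n = 2) and MT2A (37.5 ± 15.4) were highest of the genes ranked and overlapped. SLC30A5 had 30.8 ± 4.45, again too low for the same reason, so its rank is not settled in spleen either. MT1X (25.4 ± 5.59), SLC39A14 (24.4 ± 2.89) and SLC39A10 (23.9 ± 3.02) lay within their spreads of each other. SLC30A1 had 5.09 ± 1.01 and MTF1 3.57 ± 0.843 TPM. The ratio of SLC39A10 to SLC30A1 in TPM was 14.5, 8.11 and 12.1 in brain and 4.99 and 4.49 in spleen. Both genes were chosen with this contrast known and differ in opposite directions, so the ratio adds nothing to their single values. Zinc transport was not measured. Summed over the families the sites overlapped. The 14 SLC39 genes gave 332.9, 339 and 344 TPM in brain and 316 and 357 in spleen. The 10 SLC30 genes gave 86.0, 80.4 and 72.8 in brain and 81.2 and 91.9 in spleen. These sums miss any transcript not named, as for part of SLC30A5. In CPM, from the full gene counts, the SLC30 sums also overlapped, at 191.5, 176 and 173 in brain and 204 and 189 in spleen.

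**Figure D3:**
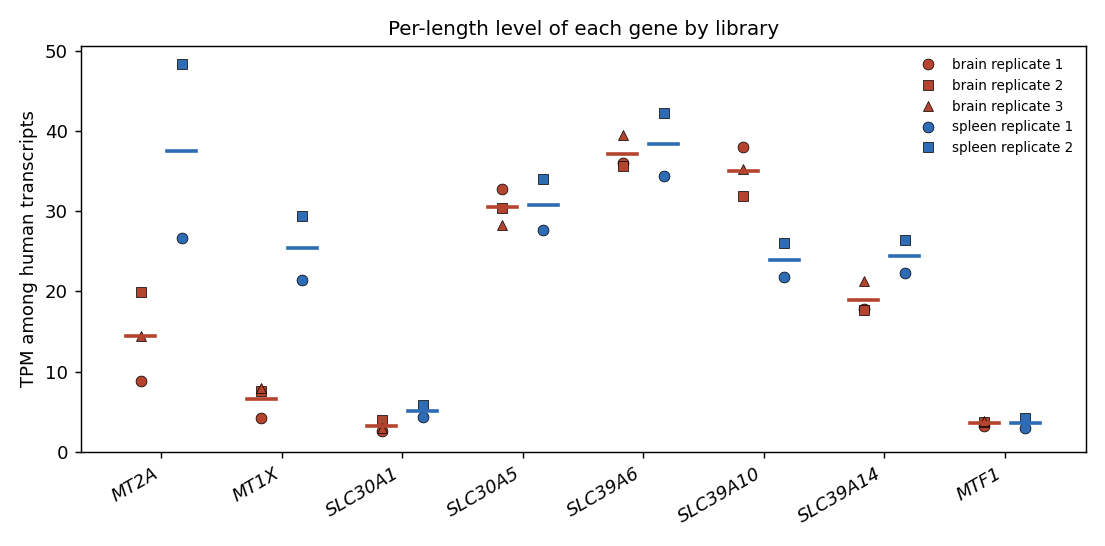
TPM among human transcripts for the same 8 genes in each library, with bars at site means and symbols for replicate numbers. In brain SLC39A10 lies above MT2A and MT1X, and in spleen the means of MT2A and MT1X lie above that of SLC39A10, while SLC39A6, SLC30A5 and MTF1 overlap between them.

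Transcript estimates showed which isoforms carried these levels. SLC30A1 and MTF1 were each carried by 1 transcript at 100%. MT2A-201 held 87.5%, 69.0% and 71.7% of MT2A counts in brain and 94.4% and 68.5% in spleen, so the sites overlapped and replicate 1 was highest at each. MT1X-201 held 83.1% to 100% of MT1X counts. SLC39A10-201 led its gene with 87.8%, 74.7% and 67.2% in brain and 66.0% and 71.9% in spleen. SLC39A14 was carried mainly by SLC39A14-204 and SLC39A14-203, of equal length, and SLC39A14-204 held 82.8%, 75.2% and 84.0% in brain and 91.1% and 79.1% in spleen. For each of these the sites overlapped in share.

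The genes whose profile over the 5 libraries was nearest to MT2A, by root mean square difference of centred log2 CPM among 12746 genes, were CD84 (0.234), TRAC (0.238) and SLC29A1 (0.238). For SLC30A1 they were SCAMP5 (0.0408), FBF1 (0.0463) and SAPCD1 (0.0593). With 5 libraries at 2 sites, many genes share such a profile.

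Related metal and stress lists are given by their counts. These lists, too, were chosen with earlier results of these data known. Nothing is therefore read from their calls beside the shares over all genes, and the p-values of their genes serve as a description only. For copper handling 0 of 9 genes tested passed in either direction by edgeR, with 0 higher and 1 lower at an unadjusted p under 0.05 and 0 by DESeq2. Their median log2 fold change was -0.0037, and the most abundant, the copper chaperone gene SCO1, measured 54.7 ± 1.60 CPM against 61.4 ± 2.01 in spleen. Glucocorticoids also induce metallothioneins. In that response list, 2 of 7 genes were higher and 1 lower, beside 6.01% and 3.5% of all genes tested, with a median of 0.26 against 0.0066 over all genes. NR3C1, the glucocorticoid receptor, rose by 0.55 on the log2 scale (edgeR adjusted p = 0.0119), and TSC22D3, a receptor target also called GILZ, by 1.12 (edgeR adjusted p = 0.00359). FKBP5, another receptor target, fell by 0.43 (edgeR adjusted p = 0.0323). Leaving out brain replicate 1 or 2 or spleen replicate 1 or 2 ended the FKBP5 call (edgeR adjusted p up to 0.14). Leaving out brain replicate 1 ended the NR3C1 call (edgeR adjusted p = 0.0666). The most abundant gene not past the threshold was DUSP1, a phosphatase gene, at 274 ± 12.9 against 309 ± 48.6 CPM. Of 9 genes of oxidative stress and iron, 0 were higher by edgeR, with 1 at an unadjusted p under 0.05 and 1 (FTL, ferritin light chain) by DESeq2. The 1 lower gene was the quinone reductase gene NQO1, which fell by 0.98 (edgeR adjusted p = 0.0137) and was no longer called when brain replicate 1 or spleen replicate 1 was dropped (edgeR adjusted p up to 0.076). FTH1, ferritin heavy chain, did not pass, at 476 ± 72.1 against 507 ± 19.1 CPM.

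Library totals lay between 38387991 and 48764202 estimated counts on human genes. Of 12 precursor B markers, 11 exceeded 10 CPM in every library and VPREB1 had 0 counts throughout. Their summed level was 8438 to 8514 CPM in brain and 8845 to 9299 in spleen, and single markers went opposite ways. CD79A was called lower in brain (608 to 754 against 1018 to 1101 CPM) and RAG1 higher (1519 to 1683 against 1081 to 1120.5 CPM). Of 8 genes looked up as markers of other human cells, PECAM1 was called higher in brain, at 10.2 to 17.4 against 1.09 to 1.78 CPM in spleen. MPO, at 23.4 to 36.7 against 14.3 to 19.6 CPM, was not called, and the other 6 were at most 1.94. Those 8 summed to 38.0 to 57.5 CPM in brain and 18.0 to 24.9 in spleen. REH was the only human line transplanted, so these counts do not show that other human cells were present. Their source and their part in the results were not tested.

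Mouse transcripts took 5.70%, 2.58% and 2.64% of all estimated counts in brain replicates 1 to 3, against 6.33% and 8.87% in spleen. The share was thus higher in both spleen libraries than in any brain library, so with 5 libraries its part can hardly be told apart from that of site. With this share as a covariate, log2 fold changes were -1.84 for MT2A, -2.37 for MT1X, -0.88 for SLC30A1 and 0.93 for SLC39A10, and none of the 4 was called. All 4 values were larger in size than without the covariate, and the lost calls decide nothing about share or site. Calls over all genes fell to 114 higher and 11 lower in that fit.

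**Figure D4:**
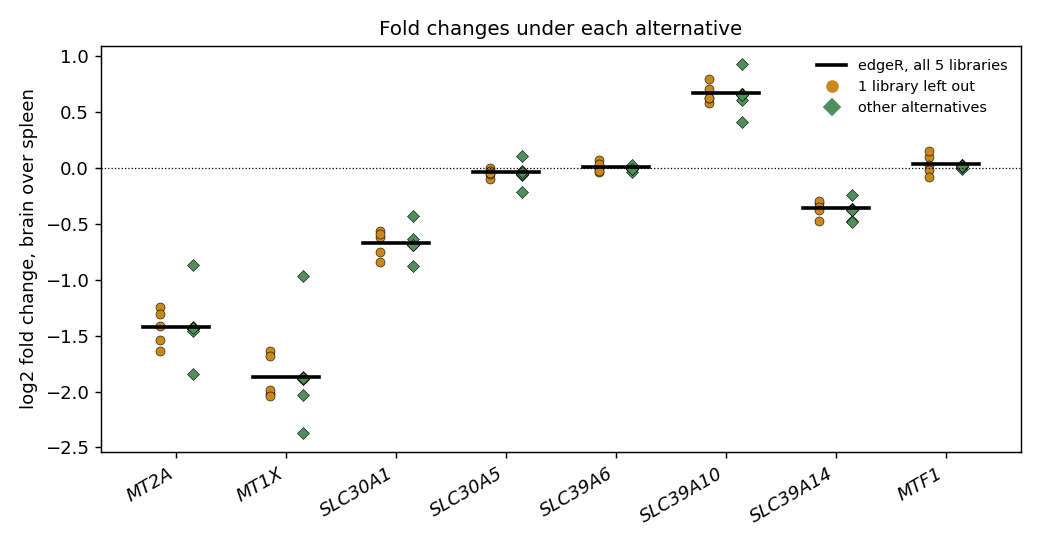
Log2 fold change of brain over spleen for the 8 genes under each alternative, with the value from edgeR on all 5 libraries as a black line, fits without 1 library as circles and other alternatives as diamonds. MT2A, MT1X, SLC30A1 and SLC39A14 stay below 0 and SLC39A10 above it in each alternative run. For these genes the sites do not overlap, so leaving out 1 library could hardly turn a sign. SLC30A5, SLC39A6 and MTF1 lie on both sides of 0.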

How the data were processed

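RNA-seq libraries of REH cells from brain (3) and spleen (2) were analysed. Per the submitters' processing notes the authors used bcl2fastq 1.8.4, cutadapt 1.5, kallisto 0.42.4 and DESeq2, with builds GRCh38 and GRCm38; the strand setting was not given in the sources used here. Libraries were made with a stranded mRNA kit, per the labels' protocols. The deposited gene table holds estimated counts as whole numbers, and the deposited transcript tables hold estimated counts and TPM over human and mouse transcripts. A further deposited table holds log2 (rlog) values, used as an alternative. Each gene table has 1 column of no sample in the series, which was not used.

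Symbols came from GENCODE 44 by Ensembl identifier (56322 identifiers, 99.76% of counts). Counts were filtered with filterByExpr, scaled by TMM and tested with edgeR 4.0.16 (quasi-likelihood, R 4.3.3; site as the only term; Benjamini-Hochberg over 20419 genes; threshold 0.05). The fit left 3 residual degrees of freedom. CPM values use TMM-scaled library sizes. TPM was rescaled to human transcripts and summed per gene over transcripts named in GENCODE 44. These held 96.5% to 96.7% of human counts per library, but a smaller part for SLC30A5. SE values are on the log2 scale. The fit was tested on simulated data. The 10 genes and the lists were chosen with earlier results of these data known. Named beside them are list genes past the threshold, the most abundant gene of each list that did not pass, and for MT2A and SLC30A1 the 3 genes of nearest profile with mean log2 CPM of at least 1. Differences within occasions use log2 CPM with a prior count of 2. The sample titles and protocols tie each replicate number to an occasion, and brain and spleen replicates 1 and 2 were paired on that basis. The deposited tables name the spleen libraries REHS2 and REHS4, where the titles have rep1 and rep2, so the pairing is uncertain, and with it the replicate block and the differences within occasions. Across 12890 genes, brain 1 minus brain 2 correlated with spleen 1 minus spleen 2 at 0.192. Alternatives were other scalings, filters and tests, the replicate block, each library left out, summed transcript estimates, the mouse share as a covariate, and the log2 table tested with limma 3.58.1. DESeq2 1.42.0 was run with default settings. Floors of 3 counts cover counting error only.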

Additional observations from a re-analysis of the deposited data

How the results depend on the processing

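MT2A, MT1X, SLC30A1 and SLC39A14 kept a negative log2 fold change and SLC39A10 a positive one under each of the 14 alternatives run. Brain and spleen libraries do not overlap for these genes, so leaving out 1 library could hardly turn a sign. Their steady signs are therefore no separate support. The calls of MT2A and MT1X were lost in 1 of the 14 alternatives, with the mouse share as a covariate. That share can hardly be told apart from site in these libraries, so calls lost in that fit decide nothing about either. Genes called higher and lower in brain ranged from 515 to 871 and from 146 to 828 when 1 library was left out, and numbered 114 and 11 with the mouse share as a covariate. Lower genes numbered 1289 by the DESeq2 Wald test and 1337 without a filter. Of the other zinc genes, 1 was called higher with no filter, and 1 lower by DESeq2 and 1 by limma on the log2 table. When 1 library was left out, the glucocorticoid list gave 1 to 2 higher and 0 to 1 lower, and the oxidative stress and iron list 0 to 1 higher and 0 to 1 lower. With the mouse share these lists gave 0 in both directions, at log2 fold changes of 0.61 for NR3C1, 0.88 for TSC22D3, -0.50 for FKBP5 and -1.24 for NQO1, and limma gave 0 lower in the glucocorticoid list. The oxidative stress and iron list had 1 higher by DESeq2 and 1 without a filter. With the replicate block, log2 fold changes were -2.03 for MT1X and -1.45 for MT2A, and SLC39A14 gained a call at -0.47; it changed no other call among the 10 genes and the lists. Values near 0 changed sign. MTF1 was -0.0057 with the replicate block and -0.081 to 0.16 when 1 library was left out. SLC30A5 ranged from -0.099 to 0.0012 without 1 library and was 0.11 with the mouse share and -0.22 with summed transcript estimates. Those estimates leave out part of the SLC30A5 counts in every library, as not all its transcripts were named. SLC39A6 ranged from -0.039 to 0.072 without 1 library and was -0.0098 with DESeq2 size factors, -0.0019 with the 1 CPM filter, -0.0083 by DESeq2, -0.037 with the replicate block, -0.0081 with summed transcript estimates and -0.0060 by limma. The cause was not tested. Depth limits MT1E and MT1F, which had at most 5 counts in any library.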
